A study of Mus musculus with 16 samples.

Results

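Lysosomal enzymes and membrane proteins were examined in hippocampal microglia, the immune cells that reside in the brain, of aged and young mice. They comprise 37 named genes, taken by symbol from a table of 24015 genes: hydrolases, their activator and processing proteins, membrane proteins of the lysosome and the transcription factor Tfeb, with the cathepsins left out. All 37 passed the filter on low counts that left 11579 genes for testing. The aged group held 6 samples from mice 20 months old and the young group 6 samples from mice 3 months old, all of the C57BL/6 strain per the labels apart from aged samples 5 and 6, whose strain label differs in its last digit. No transgene or treatment is named for either group. The sort gated viable cells with CD11b and little CD45, and cDNA made with a low-input kit was sequenced without a mark of strand. The labels do not tell single mice from pooled ones, so each p-value measures only the scatter among the 12 samples, part of which may be technical.

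The lysosome is the acid compartment in which cells break down what they engulf and what they recycle of their own. Each hydrolase cuts a particular bond in a sphingolipid, a sugar chain, a neutral lipid or a protein, and inherited loss of a single enzyme leads to storage of its substrate, often with damage to the brain. Microglia clear dead cells, myelin and synaptic material, and digest it in their lysosomes. TFEB and related factors bind the CLEAR motif, a sequence built around CACGTG, in promoters of many lysosomal genes.

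No lysosomal gene was higher and none was lower at 20 months past the threshold, a limma adjusted p under 0.05 over all tested genes, where 1.27% of all tested genes were higher and 0.458% lower, 1.73% in all. On the reads recovered for 8 of the samples, edgeR and DESeq2 also called 0 of them in either direction, where edgeR called 0.786% of all tested genes and DESeq2 2.03%. Each of these shares of 37 genes comes to less than 1 gene, so the counts of 0 do not set the lysosomal genes apart. Psap, the precursor of the saposins that present sphingolipids to their hydrolases, came closest, with a 1.39-fold difference in means toward the aged samples (95% interval 1.16 to 1.66, limma adjusted p = 0.0620). Arsb, arylsulfatase B of dermatan and chondroitin sulfate breakdown, came next in the other direction, at 0.800-fold (95% interval 0.700 to 0.913, limma adjusted p = 0.0940). At an unadjusted limma p under 0.05 there were 8 of 37 genes, or 21.6%, against 10.8% of all tested genes. Of these, 4 were higher in aged samples (Psap, Gm2a, Man2b1 and Npc2), where 5.84% of all tested genes were, and 4 were lower (Arsb, Arsa, Gusb and Lgmn), where 4.98% were. The intervals of the lysosomal genes were narrower than those of all tested genes, and what this contributes to the shares was not tested. These shares were not taken over genes of like level.

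The intervals were narrow. In 36 of 37 genes, or 97.3%, the 95% interval of the difference lay within 1.5-fold of no difference, as it did in 74.3% of all tested genes, and Psap was the exception. The interval reached 0.12 either side on the log2 scale in the most precise gene and 0.35 in the least precise. Its median was 0.16, against 0.26 over all tested genes and 0.22 over the 8636 tested genes at or above the mean level of the lowest lysosomal gene. Of the 37 genes, 15 had a log2 difference above 0 and 22 below, where 5850 of all 11579 tested genes were above 0. The median log2 difference was 0.00156 over all tested genes and -0.0286 over the 37 genes. It was -0.00436 without young sample 1, -0.00639 without aged sample 2, -0.00903 without aged sample 5, -0.0131 without young sample 3 and -0.0448 on the 8 samples with 1 library. The median size of the difference, regardless of sign, was 0.0918 over the 37 genes, 0.103 over all tested genes and 0.0845 over the same 8636 genes, so the lysosomal genes were not closer to 0 than those. The log2 difference was under 0.1 in size in 22 genes and reached 0.2 in 3, Psap, Arsb and Gla. That of Gla, -0.20, was -0.12 without young sample 1, -0.10 without young sample 6, -0.35 on the 8 samples with 1 library and -0.37 with edgeR or DESeq2. In none of the 37 did the ages fail to overlap, as they did in 1.87% of all tested genes.

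**Figure D1:**
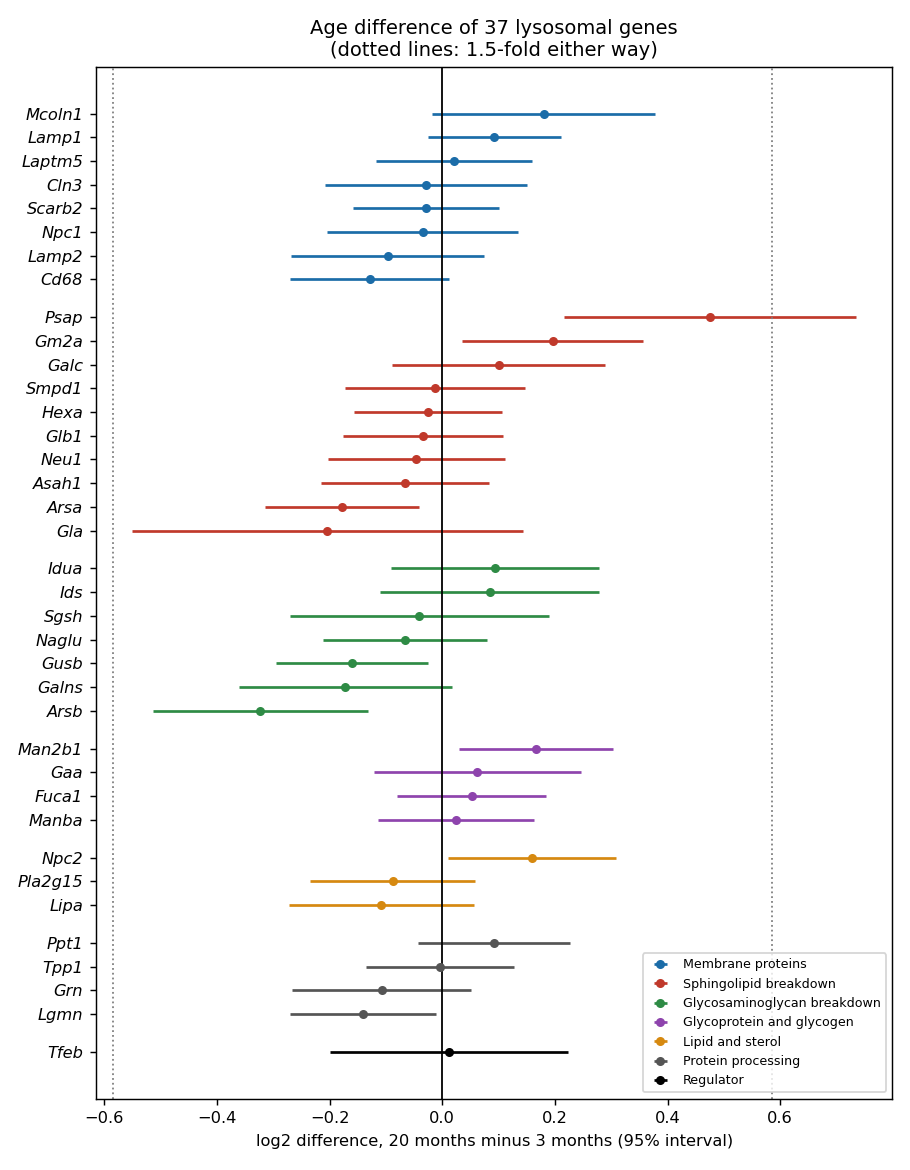
Log2 difference (20 months minus 3 months) of each of the 37 genes on the horizontal axis, with its 95% limma interval, grouped and coloured by role. Only the interval of Psap crosses the dotted 1.5-fold line, and Arsb lies farthest to the other side.

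The promoters of the genes with the smallest p-values and of genes that carry the core of the CLEAR motif are shown for reference, as the 150 bases before the more upstream of the RefSeq and GENCODE starts, from RefSeq on GRCm38.p6, 5′ to 3′ on the strand of the gene. Capitals mark CACGTG.
Psap (chr10:60277477-60277626, plus strand): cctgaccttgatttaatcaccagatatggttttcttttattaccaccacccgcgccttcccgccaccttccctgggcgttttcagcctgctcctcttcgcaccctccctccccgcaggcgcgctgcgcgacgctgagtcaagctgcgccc
Arsb (chr13:93771480-93771629, plus strand): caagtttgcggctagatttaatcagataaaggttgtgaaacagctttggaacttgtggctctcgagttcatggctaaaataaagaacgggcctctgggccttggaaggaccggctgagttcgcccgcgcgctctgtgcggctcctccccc
Lamp1 (chr8:13159011-13159160, plus strand): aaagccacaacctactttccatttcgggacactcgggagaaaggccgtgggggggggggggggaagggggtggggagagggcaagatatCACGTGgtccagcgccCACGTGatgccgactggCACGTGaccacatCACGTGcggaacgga
Mcoln1 (chr8:3500307-3500456, plus strand): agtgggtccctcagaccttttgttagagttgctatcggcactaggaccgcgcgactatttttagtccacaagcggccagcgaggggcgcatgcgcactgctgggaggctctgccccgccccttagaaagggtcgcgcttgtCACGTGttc
Arsa (chr15:89477426-89477575, minus strand): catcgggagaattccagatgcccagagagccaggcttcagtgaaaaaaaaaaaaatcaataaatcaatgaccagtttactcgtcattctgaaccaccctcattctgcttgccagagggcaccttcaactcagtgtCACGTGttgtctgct

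These windows differ in content. CACGTG has 4 copies before the start of Lamp1, 1 before that of Mcoln1 (2 in its 300-base window) and 1 before that of Arsa, and is not found in these stretches of Psap and Arsb. RefSeq windows of 300 bases, 250 before to 50 after the start, were matched for 34 of the 37 genes. A pair of nested palindromes, which read the same on both strands, were searched in them: CACGTG and TCACGTGA, which contains it. CACGTG was found for 10 of 34 lysosomal genes, or 29.4%, against 8.09% of the 27025 genes with a window. TCACGTGA was found for 3 of 34, or 8.82%, against 1.13% of all. The 10 genes with CACGTG were Arsa, Cln3, Gaa, Gla, Glb1, Lamp1, Lgmn, Mcoln1, Naglu and Sgsh. Their log2 differences with age ran between -0.20 and 0.18, with a median of -0.04 and 3 of 10 above 0. In the 24 genes without CACGTG the differences ran between -0.32 and 0.48, with a median of 0.00419 and 12 above 0. Both ranges span 0, and no test was made between them.

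The levels differed widely when set against exon length. Laptm5, a membrane protein of lysosomes in blood and immune cells, was the most abundant, at 82864 ± 6579 normalized counts per kb of exon in aged and 81460 ± 2402 in young samples (SD, n = 6 each). Lgmn, Grn and Psap followed. Gla, the galactosidase of globotriaosylceramide, was the lowest, at 57.0 normalized counts per kb in aged and 67.0 in young samples. The spread between neighbours in this order often exceeded their distance, as for Tpp1 (5576 ± 247 aged, 5600 ± 424 young, per kb) and Lamp2 (5344 ± 360 aged, 5745 ± 729 young, per kb). Psap stood near Grn in aged samples, at 44119 against 47820 per kb, and farther under it in young samples, at 31751 against 51373 per kb.

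**Figure D2:**
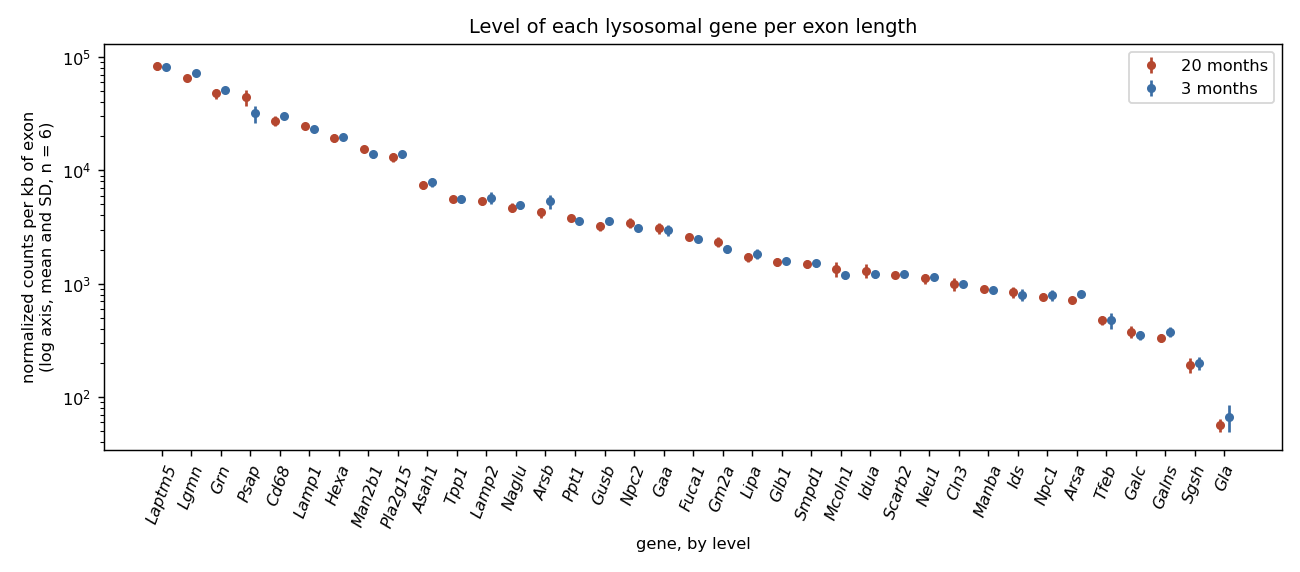
Mean normalized counts per kb of exon (log axis) with SD for each gene, ordered by level, 20 months and 3 months side by side (n = 6 each). The ages lie close to each other along the whole range, and the largest log2 differences are those of Psap and Arsb.

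As a share of all normalized counts, the 37 genes took 3.80 ± 0.124% in aged samples, with a range of 3.61% to 3.92%, and 3.70 ± 0.0884% in young samples, with a range of 3.61% to 3.86% (SD, n = 6 each). The ranges overlap. The 4 most abundant genes, Laptm5, Lgmn, Grn and Psap, made up 2.17 ± 0.0762% in aged and 2.09 ± 0.0506% in young samples, and the other 33 genes 1.63 ± 0.0548% in aged and 1.62 ± 0.0429% in young samples. In such bulk samples, fewer cells that express a gene and less RNA per cell cannot be told apart.

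Sphingolipid breakdown held 10 of the genes, 3 of them above 0 and 7 below. Psap (chr10:60277627-60302597, plus strand, GENCODE M21 on GRCm38) measured 85287, 118862, 126378, 123765, 140745 and 131343 normalized counts in aged samples 1 to 6, against 105642, 103086, 79962, 88100, 66051 and 79903 in young samples 1 to 6. Aged sample 1 lay inside the young range, and the other 5 aged samples lay above every young sample. The mean was 121064 ± 19044 in aged and 87124 ± 15140 in young samples (SD, n = 6 each), a log2 difference of 0.48. Without aged sample 1 the limma adjusted p of Psap was 0.00997, and without young sample 1 it was 0.0436. Other single samples moved it the other way, up to 0.153 without young sample 5 (log2 difference 0.40). A single sample therefore decides on which side of the threshold Psap stands. Without aged samples 5 and 6, whose strain label differs, the log2 difference of Psap was 0.38 (limma adjusted p = 0.190).

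Gm2a, the activator that hands GM2 ganglioside to its hydrolase, had a lowest value of 8222, a median of 9722 and a highest value of 10950 normalized counts in aged samples, against 7560, 8636 and 9125 in young samples. In 5 of 6 aged samples it was above every young sample, and the log2 difference was 0.20 (limma adjusted p = 0.304). Arsa, the arylsulfatase A that removes sulfate from sulfatide, a lipid of myelin, had 2345, 2543 and 2749 as lowest, median and highest in aged samples, against 2659, 2834 and 3057 in young samples. Its 6 aged values were all below the young median and 5 of them below every young value, with a log2 difference of -0.18 (limma adjusted p = 0.263). An antisense transcript, C230037L18Rik, overlaps 19.8% of the Arsa exons. Its own mean was 2.93 normalized counts, and reads of both strands cannot be told apart in this library type.

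The other 7 sphingolipid genes showed log2 differences of -0.20 for Gla, -0.07 for Asah1 (acid ceramidase), -0.05 for Neu1 (a sialidase), -0.03 for Glb1 (beta-galactosidase), -0.03 for Hexa (the alpha chain of hexosaminidase), -0.01 for Smpd1 (acid sphingomyelinase) and 0.10 for Galc (galactosylceramidase). Each of their 95% intervals included 0. In Gla, singled out after its values were seen, the mean was 181 ± 23.2 normalized counts in aged and 213 ± 55.5 in young samples (SD, n = 6 each), and the medians, 190 in aged and 184 in young samples, stood the other way round. Of the 10 genes, the saposin precursor, the GM2 activator and Galc had positive differences, and the other 7 had negative ones.

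**Figure D3:**
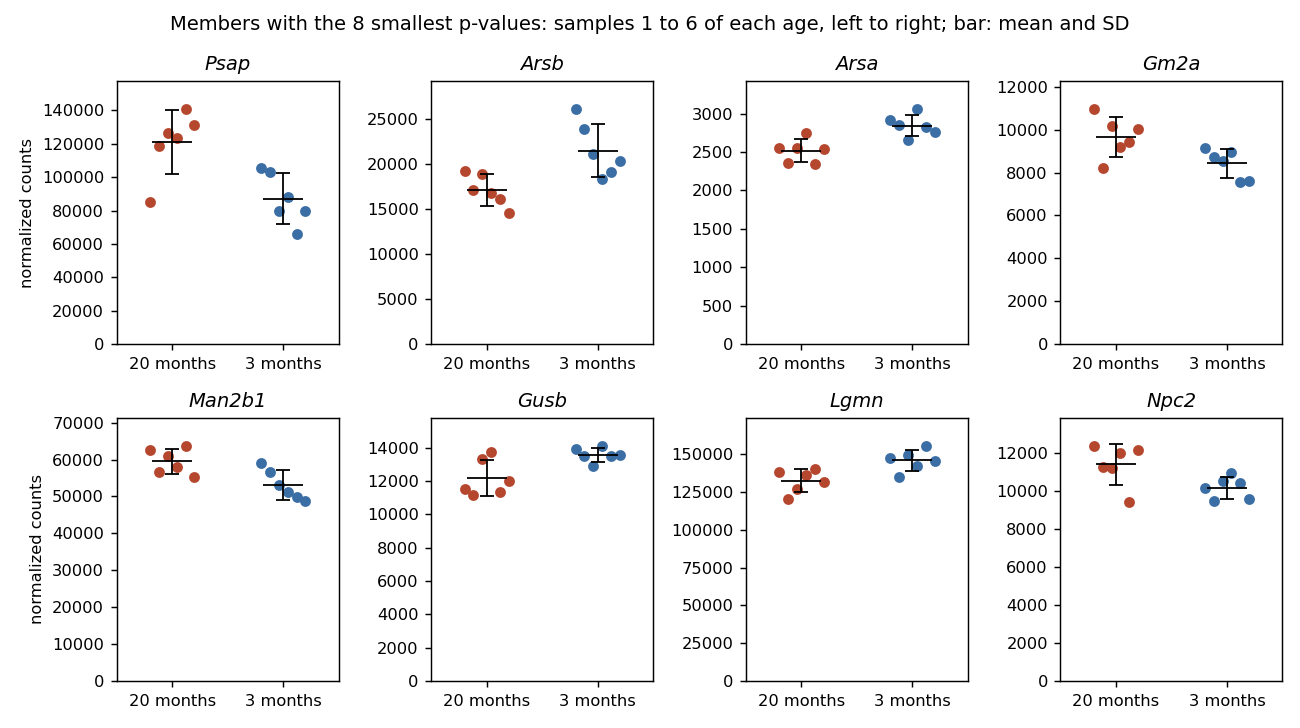
Normalized counts (vertical axis, from 0) for the 8 genes with the smallest unadjusted p, with samples 1 to 6 of each age from left to right (20 months left, 3 months right), and the mean and SD as bars. In every panel the ages overlap, by aged sample 1 alone in Psap.

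Glycosaminoglycan breakdown held 7 genes, 2 above 0 and 5 below. Arsb (chr13:93771630-93943016, plus strand) measured 19277, 17186, 18986, 16796, 16165 and 14560 normalized counts in aged samples 1 to 6, against 26142, 23987, 21130, 18395, 19122 and 20424 in young samples 1 to 6. All 6 aged samples were below the young median and 4 were below every young sample. The mean was 17162 ± 1772 in aged and 21533 ± 2977 in young samples (SD, n = 6 each), a log2 difference of -0.32. Without aged samples 5 and 6, whose strain label differs, the log2 difference of Arsb was -0.25 (limma adjusted p = 0.248). Of the Arsb exons, 48.2% are overlapped by Gm26527, a non-coding gene on the other strand, so the library type does not assign those reads to one of them. Gm26527 is not among the deposited genes, so its level is not known. Overlaps of other lysosomal genes include Apobr with 13.2% of the Cln3 exons (mean 763 normalized counts) and Tmppe with 6.89% of the Glb1 exons (mean 1351).

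Gusb, the beta-glucuronidase, had 11142, 11778 and 13743 normalized counts as lowest, median and highest in aged samples, against 12925, 13517 and 14110 in young samples. It was below every young sample in 4 of 6 aged samples, with a log2 difference of -0.16 (limma adjusted p = 0.328). The remaining log2 differences were -0.17 for Galns and -0.04 for Sgsh, both sulfatases, -0.07 for Naglu, an enzyme of heparan sulfate breakdown, 0.08 for Ids and 0.09 for Idua, which act on dermatan and heparan sulfate. Their intervals all included 0. The genes of this group farthest below 0 were Arsb, Galns and Gusb.

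Glycoprotein and glycogen breakdown held 4 genes, all above 0. Man2b1, the lysosomal alpha-mannosidase, had 55158, 59474 and 63685 normalized counts as lowest, median and highest in aged samples, against 48792, 52042 and 59028 in young samples. All 6 aged values were above the young median and 3 above every young value, with a log2 difference of 0.17 (limma adjusted p = 0.309). Gaa, which releases glucose from glycogen, Fuca1, a fucosidase, and Manba, a beta-mannosidase, differed by 0.06, 0.05 and 0.02 on the log2 scale.

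In the group of lipid and sterol handling, Npc2, a soluble carrier of cholesterol, stood at 9432, 11628 and 12388 normalized counts as lowest, median and highest in aged samples, against 9463, 10304 and 10960 in young samples. In 5 of 6 aged samples it was above every young sample and in aged sample 5 below every young sample, with a log2 difference of 0.16 (limma adjusted p = 0.410). Pla2g15, a lysosomal phospholipase, had 31294, 35969 and 38058 in aged samples, against 35070, 36423 and 42246 in young samples, again lowest, median and highest, with a log2 difference of -0.09 (limma adjusted p = 0.768). Lipa, which splits cholesteryl esters, differed by -0.11.

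Protein processing held Lgmn, Grn, Tpp1 and Ppt1. Lgmn, legumain, an asparagine-specific endopeptidase, had 120510, 133838 and 140413 normalized counts as lowest, median and highest in aged samples, against 134864, 146539 and 155464 in young samples. All 6 aged values were below the young median and 3 below every young value, with a log2 difference of -0.14 (limma adjusted p = 0.398). Grn, the progranulin precursor of the granulins, averaged 111900 ± 11384 in aged and 120213 ± 7631 in young samples (SD, n = 6 each; log2 difference -0.11). Tpp1, a peptidase, and Ppt1, which removes palmitate from proteins, differed by -0.00398 and 0.09.

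Among the 8 membrane proteins, 3 were above 0 and 5 below, and none reached an unadjusted p under 0.05. Laptm5 had 189843, 216152 and 238289 normalized counts as lowest, median and highest in aged samples, against 201638, 211899 and 219120 in young samples, with a log2 difference of 0.02 (limma adjusted p = 0.953). The aged range enclosed the young range. Lamp1 and Lamp2, the major glycoproteins of the lysosomal membrane, differed by 0.09 and -0.10. Mcoln1, a cation channel, differed by 0.18, Cd68, a glycoprotein of macrophage lysosomes, by -0.13, Scarb2, the carrier of glucocerebrosidase, by -0.03, Npc1, the partner of Npc2 in cholesterol export, by -0.03, and Cln3 by -0.03. The intervals of all 8 included 0.

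Tfeb, the transcription factor that drives many of these genes, had 1671, 1878 and 2141 normalized counts as lowest, median and highest in aged samples, against 1568, 1836 and 2482 in young samples. The aged range lay inside the young range, and the log2 difference was 0.01 (limma adjusted p = 0.983). Over the rest of the pathway, 90 further genes of the proton pump, other enzymes, other membrane proteins, delivery and regulation were listed, and 86 passed the filter. None was higher or lower past the threshold in limma, nor with edgeR or DESeq2 on 8 samples, where these called 1.73%, 0.786% and 2.03% of all tested genes, each no more than 2 genes in 86. Of these, 38 were above 0 and 48 below, the median log2 difference was -0.01, and 7 (8.14%, against 10.8% of all tested genes) had an unadjusted limma p under 0.05.

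Within each of these lists the gene with the smallest p was as follows. Atp6ap2, an accessory subunit of the proton pump, averaged 8067 ± 671 normalized counts in aged and 9168 ± 693 in young samples (SD, n = 6 each; log2 difference -0.19, limma adjusted p = 0.296). Arsg, a sulfatase, averaged 2884 ± 373 in aged and 2492 ± 106 in young samples (0.20 on the log2 scale). Mfsd8, a membrane transporter, averaged 566 ± 126 in aged and 673 ± 71.2 in young samples (-0.27). Cln8, which exports new enzymes from the endoplasmic reticulum, averaged 6207 ± 357 in aged and 7002 ± 638 in young samples (-0.17). Fnip2, a partner of folliculin in nutrient signalling, averaged 1523 ± 240 in aged and 1319 ± 185 in young samples (0.20). Atp6ap2, Mfsd8 and Cln8 had the lower mean in aged samples, Arsg and Fnip2 the higher, and none of the 5 passed the threshold.

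**Figure D4:**
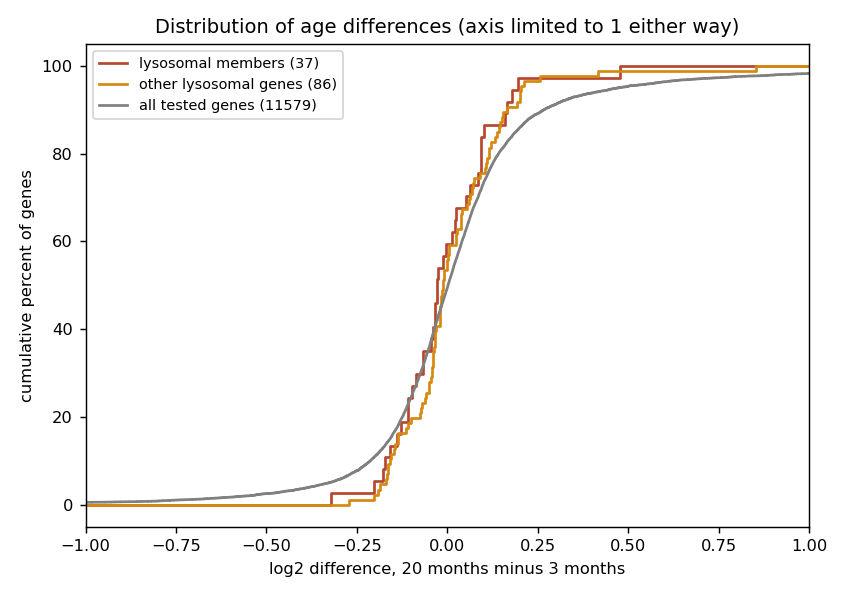
Cumulative percent of genes (vertical axis) against the log2 difference, 20 months minus 3 months, for the 37 genes, the 86 other lysosomal genes tested and all 11579 tested genes. The curve of all genes, which include many of lower level, has longer tails, while the median size of the difference was 0.0918 for the 37 genes and 0.0845 for the tested genes at or above the lowest of their levels.

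A pair of samples stood apart for many of the genes at once. Each value was expressed as its log2 distance from the mean of its gene over the 12 samples, and the median over the 37 genes was taken per sample. It was -0.13 in aged sample 2, where 30 of 37 genes were below their mean, and 0.09 in young sample 1, where 31 of 37 were above it. The other 10 samples lay between -0.05 and 0.04. Young sample 1 was also the shallowest, at 11.4 M reads. Without it Psap passed the threshold, and the log2 differences of Tpp1 (0.0252), Npc1 (0.00484), Smpd1 (0.00154) and Tfeb (-0.0186) had the opposite sign. The coefficient of variation had a median of 8.81% in aged and 7.45% in young samples, and 21 of 37 genes varied more among aged samples.

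Correlations between the genes were taken over the 12 samples after the mean of each age was removed. The median Pearson correlation of the 666 pairs was 0.206, with 487 pairs above 0, against -0.002 over all pairs of tested genes. Lamp2 with Tpp1 (0.90) and Lipa with Pla2g15 (0.89) were the closest pairs, and Manba with Fuca1 (-0.80) the farthest apart. These values share their libraries. Without aged sample 2 and young sample 1 the median was 0.0186 over 10 samples, with 350 pairs above 0.

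**Figure D5:**
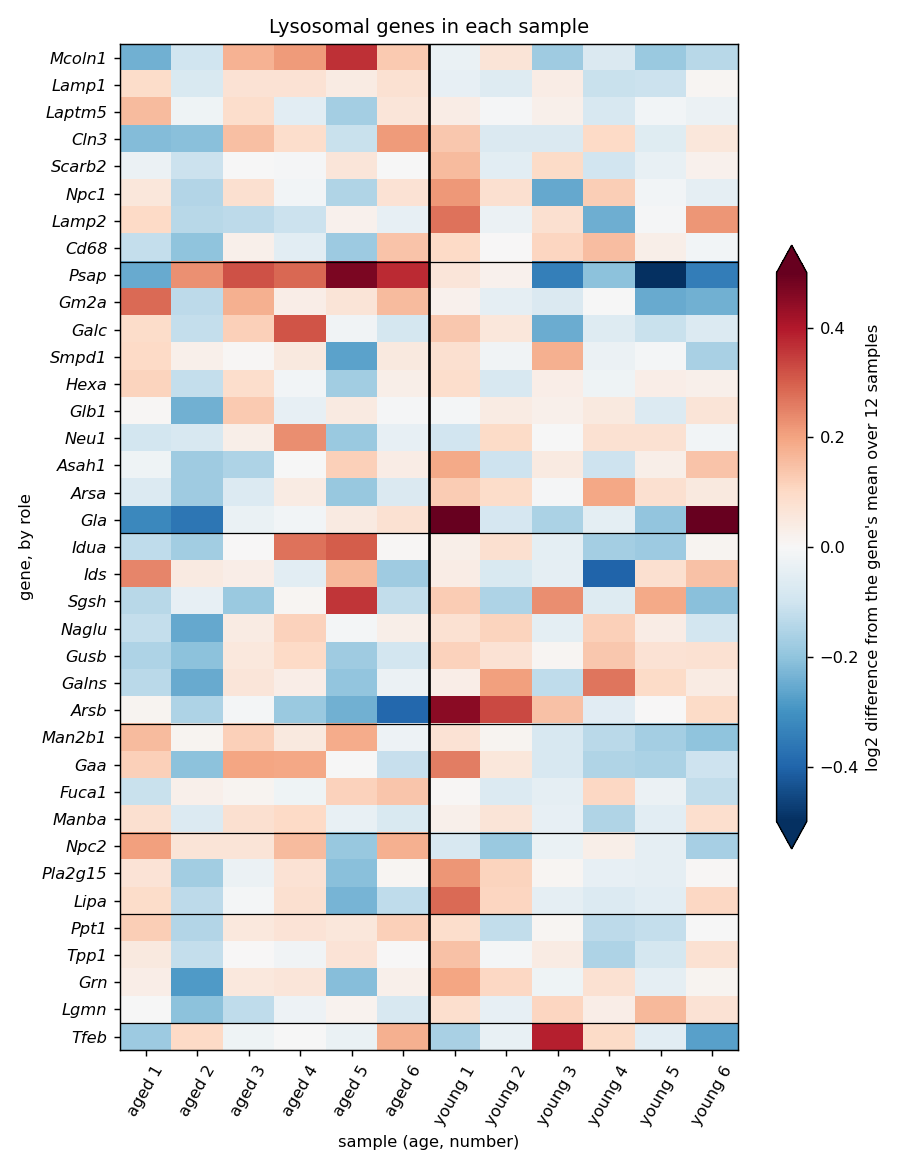
Log2 difference of each gene (rows, by role) in each sample (columns, aged samples left) from its mean over the 12 samples, red above and blue below, with colours saturated beyond 0.5. Aged sample 2 is blue in most rows, young sample 1 is red in most, and the Psap row is red in 5 aged samples.

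Depth was 11.4 to 47.3 M reads in the 8 samples with 1 library, and was estimated at 52.1 to 58.2 M in the 4 with 2 libraries. It averaged 36.4 ± 14.8 M in aged and 39.0 ± 18.0 M in young samples (SD, n = 6 each). The lowest value of any of the 37 genes in any sample was 150 normalized counts, so none was limited by counts near 0. Of 11 marker lists, 8 microglial genes summed to 49729 ± 1849 CPM (summed normalized counts scaled to the total of the sample) in aged and 54116 ± 2278 in young samples (SD, n = 6 each; exact permutation, adjusted p = 0.0159), with ranges of 46953 to 51803 in aged and 51695 to 57069 in young samples. All 8 passed the filter, and of these 1 was itself lower in aged samples at a limma adjusted p under 0.05 and 0 were higher. The sum therefore does not show a fall in each of the 8 genes. Monocyte markers summed to 5.15 ± 0.646 CPM in aged and 3.26 ± 0.918 in young samples (n = 6 each, exact permutation, adjusted p = 0.0159), where 4 of 7 averaged under 10 normalized counts. Lymphocyte markers summed to 32.7 ± 2.84 in aged and 41.4 ± 3.20 in young samples (n = 6 each, exact permutation, adjusted p = 0.0159), with 8 of 9 averaging under 10 normalized counts. This sum rests mainly on the remaining gene, the only 1 of the 9 to pass the filter. That gene was itself lower in aged samples at a limma adjusted p under 0.05. A difference in lymphocyte content therefore cannot be read from the sum. The sums of the 8 other lists, of border macrophages, neutrophils, astrocytes, oligodendrocytes, neurons, endothelium, choroid plexus and dissociation genes, missed the threshold. Of the astrocyte markers, 1 gene was by itself higher in aged samples at a limma adjusted p under 0.05. What these differences contribute to the lysosomal values was not tested.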

How the data were processed

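For 12 samples built from 16 libraries, the deposited values are normalized counts, a signal scaled by the authors. STAR alignment, counting by samtools and a DESeq2 comparison are named in the series' design text, and mm10 in the submitters' processing notes. Tool versions and gene annotation were not given in the sources used here. In the 8 single-library columns, 100% of values were whole multiples of 1 step (tolerance 0.1 of a read), so reads were recovered there. The columns of 4 samples match the mean of 2 separately normalized libraries.

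Genes with at least 10 normalized counts in at least 6 samples were tested on log2(count + 1) with limma 3.58.1 in R 4.3.3, two-sided, with a mean-variance trend and Benjamini-Hochberg adjustment over 11579 genes at 0.05. Fold changes are on this scale. Errors are SDs. Marker lists were summed as CPM and compared by an exact two-sided permutation test, adjusted over 11 lists. A gene in each of 2 of these lists was left out of the sums and is not reported here. The smallest p of that test is 0.0022. Counts were divided by merged exon length (GENCODE M21, GRCm38).

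The members and the lists were chosen with earlier results of these data known. Genes given with full values were those past the threshold, the 8 with the smallest p, and the highest in each of 7 roles. The others are given by log2 difference. Gla, Grn, Tpp1 and Lamp2 are also given by level, chosen after their values were seen. In each list of further pathway genes, those past the threshold and the one with the smallest p were named. Alternatives were 24 fits, with other pseudocounts, filters and scalings, left-out samples, a replicate block, and edgeR 4.0.16 and DESeq2 1.42.0 on recovered reads of 8 samples. The analysis was tested on simulated data. On recovered reads edgeR called 76 genes higher and 15 lower.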

Additional observations from a re-analysis of the deposited data

Results flagged for a closer look

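In 78 sets of 6 samples, formed by the 37 genes and the sample summaries at each age, 7 had 1 sample apart from the other 5 by more than Dixon's 95% limit. Chance gives about 1 in 20 in independent sets. These sets share their samples, and the sample summaries are formed from the same genes, so the number of 7 cannot be judged against that rate. All 7 were in aged samples. Psap was 85287 normalized counts in aged sample 1, where the others ran between 118862 and 140745. Lamp1 was 50635 in aged sample 2 (others 54915 to 56834), and Ppt1 was 11616 there (others 13311 to 14002). In aged sample 5, Smpd1 was 3015 (others 3639 to 3890), Npc2 was 9432 (others 11233 to 12388) and Sgsh, on the high side, was 1088 (others 746 to 855). The median deviation of all 37 genes was -0.13 on the log2 scale in aged sample 2, where the other aged samples lay between -0.00842 and 0.04.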

How the results depend on the processing

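In 888 fits, 37 genes under 24 alternatives each, 855 kept the direction and the side of the threshold, 29 turned the direction and 4 passed the threshold. Psap passed with quantile normalization (0.52, limma adjusted p = 0.0261), without aged sample 1 (0.57, limma adjusted p = 0.00997) and without young sample 1 (0.54, limma adjusted p = 0.0436), and Arsb passed with quantile normalization (-0.34, limma adjusted p = 0.0328). The count of lysosomal genes higher at 20 months was therefore 0, or 1 in those 3 fits (leave-one-out range 0 to 1), and the count lower was 0, or 1 with quantile normalization. Correlations of same-numbered samples, with the mean of each age removed, were -0.121 to 0.107. For aged samples 1 and 4 the same-numbered young sample gave the highest value (0.107 and 0.095). For the other aged samples a young sample of another number did, at up to 0.216. Whether the numbers mark pairs cannot be told from these values. With the replicate block Psap had an adjusted p of 0.185 and Arsb 0.0590, and 115 genes were higher and 30 lower among all tested. Both genes stood farther from the threshold in some other fits. On the 8 samples with 1 library the limma adjusted p was 0.2687 for Psap and 0.2735 for Arsb. With edgeR on those samples the adjusted p was 0.2312 and 0.2555, and with DESeq2 0.0810 and 0.151. Without the filter the limma adjusted p was 0.182 and 0.183. Without aged samples 5 and 6 it was 0.190 and 0.248. All tested genes gave 147 higher and 53 lower, but 67 and 11 on the 8 samples with 1 library, 76 and 15 with edgeR, 184 and 51 with DESeq2, and 102 to 175 and 27 to 60 when 1 sample was left out (lower: 35 when aged 2 was dropped, and 35, 32, 35, 27 and 30 on dropping young 1, 2, 4, 5 and 6 in turn). The other lysosomal pathway genes gave 0 in each fit. The median log2 difference of the 37 genes, -0.0286, was -0.0320 to -0.00436 when 1 sample was left out and -0.0448 to -0.0221 under the other alternatives, and Gla, -0.20, was -0.26 to -0.10 and -0.37 to -0.20. Differences near 0 that turned were Hexa (0.00441) and Smpd1 (0.0380) without aged samples 5 and 6, Laptm5 (-0.0257 on 8 samples, -0.0207 with edgeR, -0.0207 with DESeq2), Tfeb (-0.0202 without aged samples 5 and 6, -0.00534 on 8 samples, -0.0278 with edgeR, -0.0275 with DESeq2) and Tpp1 (0.0217, quantile normalization). Leaving out 1 sample moved Cln3 between -0.0741 and 0.0123, Glb1 between -0.0633 and 0.0106, Hexa between -0.0501 and 0.00690, Laptm5 between -0.00851 and 0.0571, Manba between -0.00276 and 0.0437, Npc1 between -0.0898 and 0.00484, Sgsh between -0.116 and 0.00172, Smpd1 between -0.0463 and 0.0393, Tfeb between -0.0409 and 0.0915, and Tpp1 between -0.0353 and 0.0252. The median correlation between genes, 0.206, was 0.0186 without aged sample 2 and young sample 1, a choice made after seeing the data. The cause of these shifts was not tested. The 4 columns averaged over 2 libraries carry no recovered reads.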
